A study of Mus musculus with 6 samples.

Results

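Microglia, the resident immune cells of the retina, were followed through 39 genes of their homeostatic state, their lineage and their disease-associated state, selected by symbol from the 55376 genes of the deposited count table, with all 39 symbols found. RNA-seq had been performed on whole retinas of 3 wild-type (WT) and 3 Wfs1-/- (Wfs1-KO) mice of strain C57x129 in the sample labels, all 240 days old, while the methods give a C57BL/6 J background. The mutant allele was a deletion of exon 8 of Wfs1, the gene of the endoplasmic reticulum protein wolframin that is mutated in Wolfram syndrome. It was not restricted to any cell type, and the labels name no treatment for either group. Because each library holds the RNA of all retinal cells, more microglia and more RNA per microglial cell cannot be told apart here.

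As background, microglia depend on the receptor CSF1R and on the transcription factors PU.1 (Spi1) and SALL1, and in the healthy retina they carry purinergic and fractalkine receptors with which they sense neurons. In degenerating neural tissue they take up debris through TREM2 and its adaptor TYROBP, raise lysosomal, lipid and antigen presentation genes, and lower part of the homeostatic genes. C1q, which microglia make, opens the classical complement pathway and tags synapses and debris for uptake.

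The unit of level is CPM, reads scaled to a common library size with TMM factors. A run of 3 values always lists replicates 1, 2 and 3, and a log2 fold change of Wfs1-KO over WT is followed by ± its standard error. Total counts ranged from 17916885 to 101334381 per retina. Wfs1 itself had 64.9, 61.4 and 69.9 CPM across WT and 9.63, 0.90 and 11.5 CPM across mutant retinas, with the lowest value in Wfs1-KO replicate 2. Wfs1-KO replicate 2 stood apart, with a mean Pearson correlation to the other libraries of 0.918 in log2 CPM, against 0.962 to 0.971 for each of the other 5. Values without it are therefore given beside the genes whose fold changes the text turns on. They are also given beside the medians of the role groups of more than 3 microglia genes. WT replicate 3 had 1137 counts of the Y-linked gene Ddx3y and the other 5 retinas at most 2, so that 1 animal differed in sex from the rest.

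The microglia genes were high in 1 mutant retina, Wfs1-KO replicate 2. The 39 genes together reached 176, 188 and 172 CPM across WT and 206, 797 and 161 CPM across mutant retinas, so that Wfs1-KO replicate 2 lay at 4.45 times the WT mean while mutant replicates 1 and 3 lay on either side of the WT range. Of the 39 genes, 37 passed the filter on low counts, and Itgax and Cst7 did not. Among the 37, Wfs1-KO replicate 2 was the top retina for 33 genes, that is 89.2%, against 38.4% of all tested genes. The exceptions were Axl, P2ry12, P2ry13 and Sall1. That retina was above every WT retina for 34 genes, or 91.9% against 40.9%, and at least 2 times the mean of the other 5 retinas for 29, or 78.4% against 17.2%.

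None of the 37 genes passed an adjusted p of 0.05 in the quasi-likelihood test of edgeR with all 6 retinas, adjusted over all tested genes by the Benjamini-Hochberg method, where 0.0108% of all genes passed. The adjusted p was 0.979 for each gene except Ptprc, with 0.990. No label says that the retinas of a group came from separate litters or days, so the p-values measure the spread between these samples. Before adjustment 6 genes had a p under 0.05, all higher in mutant retinas, namely Cd74 on chromosome 18 of mm10, Spi1 (chr2:91082390-91115756), Lgals3 (chr14:47367751-47386160), Cx3cr1 (chr9:119901616-120069879), Trem2 (chr17:48346401-48354147) and Clec7a (chr6:129461591-129472779). They were 16.2% of the 37, against 2.24% of all tested genes that were higher, 0.566% that were lower and 2.81% in either direction. The microglia genes were centred at a log2 fold change of 1.21 (median), with 34 above 0 and 3 below, against 0.023 and 52.8% above 0 for all tested genes. When no filter was applied the median of all 39 was 1.18.

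Without Wfs1-KO replicate 2 the median was 0.10, with 24 genes above 0 and 14 below among the 38 then tested, against 49.9% above 0 for all genes. None passed the adjusted threshold in edgeR's test, where 0.125% of all genes did. At an unadjusted p under 0.05 were Cd74, which was higher, and Spp1, which was lower, beside 2.80% and 2.39% of all genes in those directions and 5.19% in either. With DESeq2 on all 6 retinas 0 of the 37 passed an adjusted p of 0.05, where 0.280% of all genes did, and 14 had an unadjusted p under 0.05, against 4.02%. DESeq2 gave no p-value for Cd74 and Lyz2. Without Wfs1-KO replicate 2 DESeq2 had 2 such genes, against 4.94% of all genes.

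The unadjusted count also depended on the other libraries. It was 0 without WT replicate 1 (1.65% of all genes), 1 without WT replicate 2 (Mmp12, 1.6%) and 1 without WT replicate 3 (Cd74, 1.96%). It was 15 without Wfs1-KO replicate 1 (4.23%) and 23 without Wfs1-KO replicate 3 (5.17%). It was also 20 of 39 with no filter on low counts (3.78%), 4 of 31 with at least 10 counts in every retina (2.47%) and 5 of 37 with a replicate block (1.67%).

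**Figure D1:**
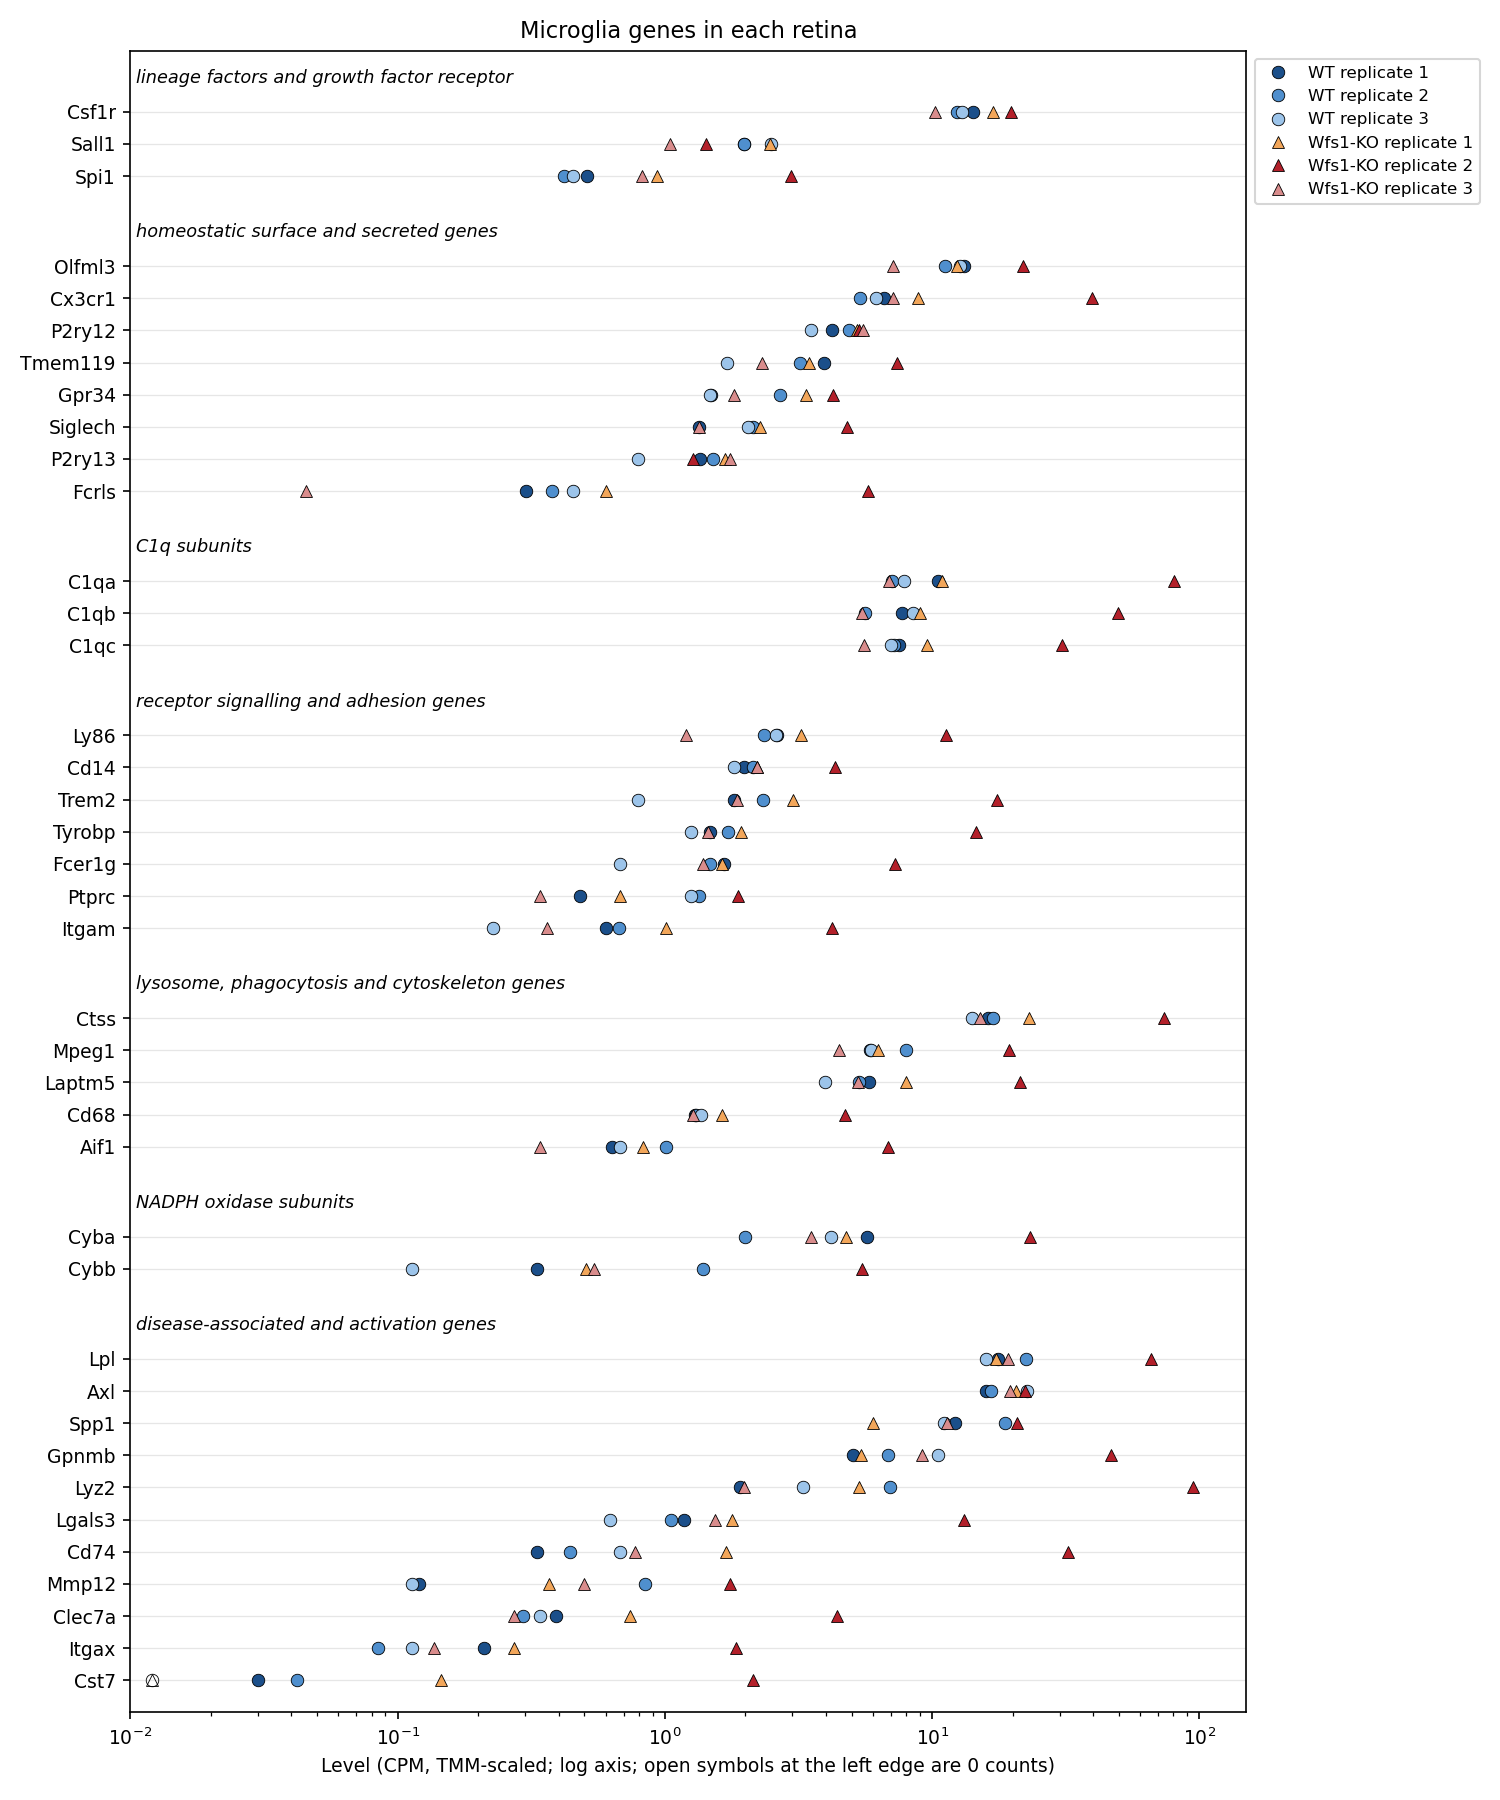
Level of each of the 39 microglia genes (CPM on a log axis) in the 3 WT retinas (circles) and the 3 Wfs1-KO retinas (triangles), grouped by role. Wfs1-KO replicate 2, in dark red, is at the right edge for 33 of the 37 tested genes. For Cd74 Wfs1-KO replicate 1 lies above the WT retinas (1.7 CPM). For Fcrls Wfs1-KO replicate 3 lies below them at 0.0454 CPM, which is 2 counts and under the floor of 3 counts.

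The other 2 mutant retinas did not share a direction. Wfs1-KO replicate 1 was above every WT retina for 22 of the 37 genes (59.5%, against 20.3% of all tested genes). Wfs1-KO replicate 3 was above every WT retina for 7 genes (18.9%, against 21.9%) and below every WT retina for 14 (37.8%, against 20%). All 3 mutant retinas lay above all 3 WT retinas for 6 genes, Cd14, Cd74, Cx3cr1, Lgals3, P2ry12 and Spi1, or 16.2% of the 37 against 5.01% of all tested genes. With Wfs1-KO replicate 2 set aside the same 6 genes and P2ry13 did so, 18.9% against 11.4%. No microglia gene had all its mutant values below all its WT values, as 3.94% of all tested genes did, nor with replicate 2 set aside, as 11.2% did.

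**Figure D2:**
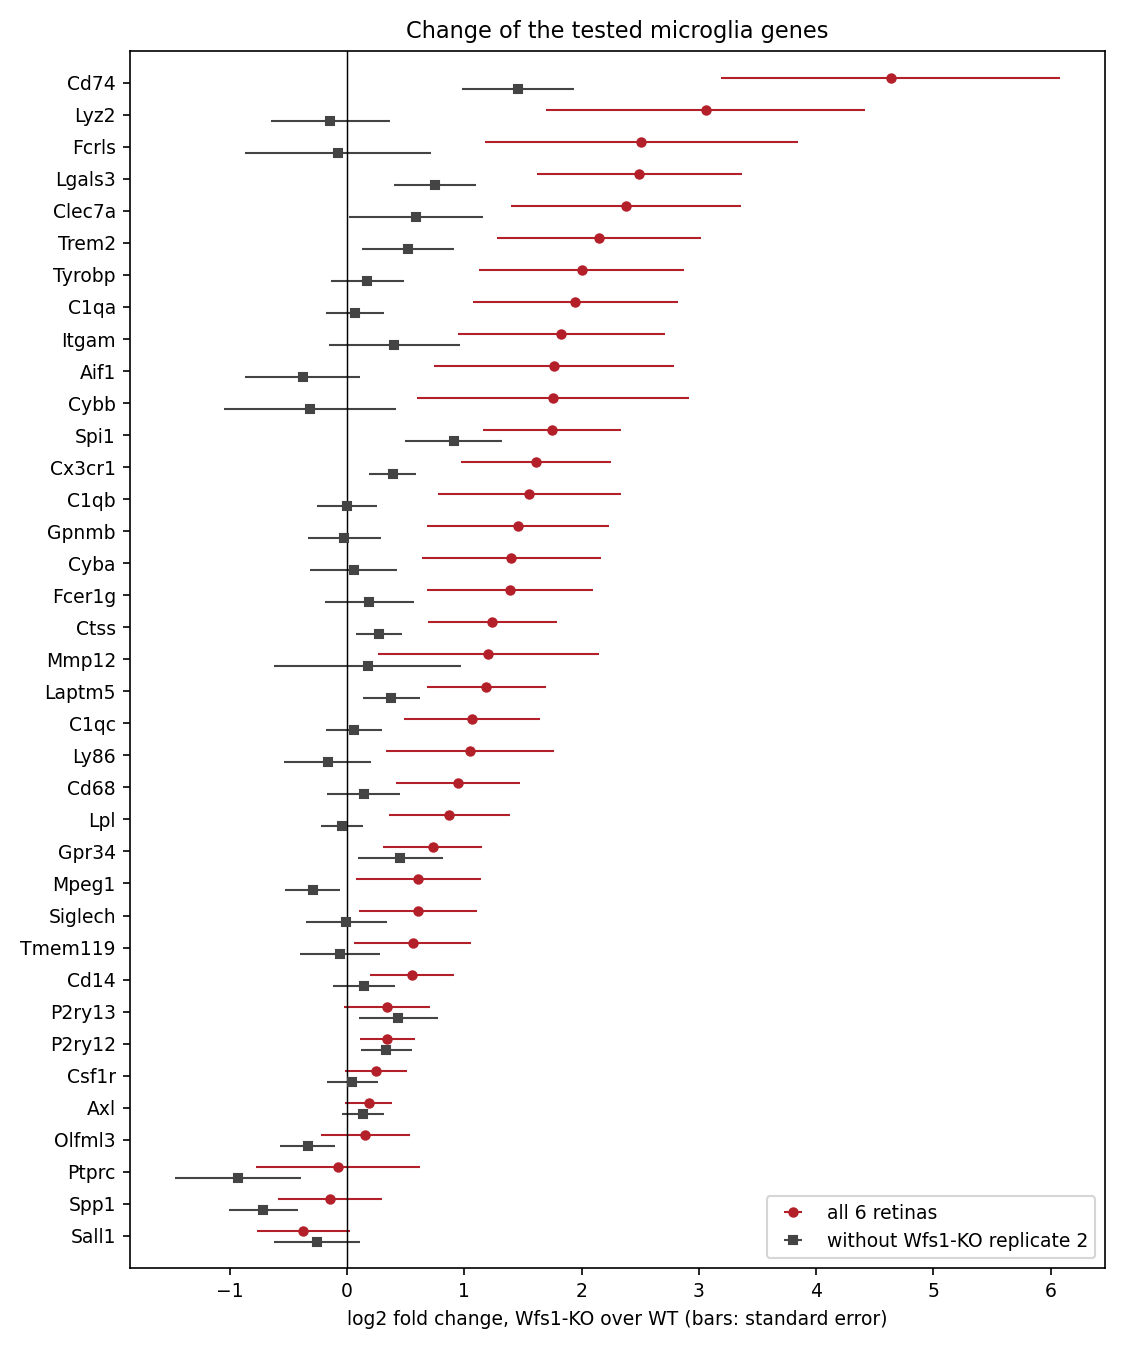
The log2 fold change of Wfs1-KO over WT retinas with its standard error for the 37 tested genes, with all 6 retinas (red circles) and without Wfs1-KO replicate 2 (grey squares). The median moves from 1.21 to 0.10 (over 38 genes, Itgax included), and Cd74, Spi1 and Lgals3 have the 3 highest grey values.

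Among the lineage genes, Spi1 encodes PU.1, the master transcription factor of myeloid cells. Spi1 had 0.512, 0.42 and 0.454 CPM across WT and 0.932, 2.96 and 0.817 CPM across mutant retinas, and each mutant retina was above each WT retina, at between 8 and 125 counts per retina. For Spi1 the log2 fold change was 1.75 ± 0.59, and 0.91 ± 0.42 without Wfs1-KO replicate 2. Csf1r, the receptor for the survival factors CSF1 and IL-34, had 14.2, 12.3 and 12.9 CPM across WT and 16.9, 19.6 and 10.3 CPM across mutant retinas, with mutant replicates 1 and 2 above and replicate 3 below the WT range. This gave Csf1r a log2 fold change of 0.25 ± 0.26, against 0.05 ± 0.22 without Wfs1-KO replicate 2. Sall1, which maintains microglial identity, had 1.97, 1.98 and 2.5 CPM across WT and 2.46, 1.42 and 1.04 CPM across mutant retinas, with mutant replicates 2 and 3 below the WT range. With Wfs1-KO replicate 2 left out, the log2 fold change of Sall1 went from -0.37 ± 0.39 to -0.25 ± 0.37. The 3 lineage genes therefore did not move together in Wfs1-KO replicate 2, where Spi1 was 6.41 times, Csf1r 1.5 times and Sall1 0.661 times the WT mean.

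For the 8 homeostatic surface and secreted genes the median log2 fold change was 0.58, and 0.17 without Wfs1-KO replicate 2. P2ry12, the ADP receptor that steers microglial processes towards injury, had 4.21, 4.88 and 3.52 CPM across WT and 5.24, 5.3 and 5.5 CPM across mutant retinas. Its mutant values were all above its WT values, but by little, with a log2 fold change of 0.34 ± 0.23 and 0.33 ± 0.22 with and without Wfs1-KO replicate 2. P2ry13, a neighbouring receptor of the same family, had 1.35, 1.51 and 0.795 CPM across WT and 1.68, 1.28 and 1.75 CPM across mutant retinas, with a log2 fold change of 0.34 ± 0.37 and 0.44 ± 0.34 in the same order. These receptors differed from Cx3cr1, the receptor of the neuronal chemokine fractalkine, which had 6.62, 5.38 and 6.19 CPM across WT and 8.82, 39.7 and 7.11 CPM across mutant retinas. Wfs1-KO replicate 2 was 6.55 times the WT mean for Cx3cr1, 1.26 times for P2ry12 and 1.05 times for P2ry13. P2ry12 and P2ry13 lie within the span of Med12l, a gene on the other strand, and the library kit does not keep the strand. Med12l was at 0.1375 times its WT mean in Wfs1-KO replicate 2. The part of Med12l reads in the values of P2ry12 and P2ry13 was not tested. The log2 fold change of Cx3cr1 was 1.61 ± 0.64 with all 6 retinas and 0.39 ± 0.20 without Wfs1-KO replicate 2.

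Olfml3, a secreted glycoprotein, was the most abundant homeostatic gene per kilobase of exon and had 13.2, 11.2 and 12.7 CPM across WT and 12.4, 21.8 and 7.15 CPM across mutant retinas, with mutant replicate 3 below and replicate 2 above the WT range. For Olfml3 the log2 fold change was 0.16 ± 0.38, and -0.34 ± 0.23 without Wfs1-KO replicate 2. Tmem119, a surface marker of microglia, had 3.94, 3.19 and 1.7 CPM across WT and 3.47, 7.39 and 2.32 CPM across mutant retinas, and Siglech, a sialic acid binding lectin, had 1.34, 2.14 and 2.04 CPM across WT and 2.26, 4.78 and 1.34 CPM across mutant retinas. For both, the mutant retinas other than replicate 2 lay inside the WT range or close to its edge. Gpr34, a receptor for lysophosphatidylserine, had 1.49, 2.69 and 1.48 CPM across WT and 3.38, 4.24 and 1.82 CPM across mutant retinas, and its log2 fold change was 0.73 ± 0.42, and 0.46 ± 0.36 without Wfs1-KO replicate 2. Fcrls, an Fc receptor-like scavenger receptor, had 0.301, 0.378 and 0.454 CPM across WT and 0.602, 5.75 and 0.0454 CPM across mutant retinas, which spans from 2 to 243 counts within the mutant group. Fcrls had a log2 fold change of 2.51 ± 1.34 and -0.08 ± 0.79 with and without Wfs1-KO replicate 2.

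The C1q subunits are made from 3 adjacent genes on chromosome 4 of mm10 (C1qb at chr4:136880129-136886187, C1qc at chr4:136889804-136893065 and C1qa at chr4:136895917-136898803, all on the minus strand). C1qa had 10.5, 7.1 and 7.83 CPM across WT and 10.9, 80.5 and 6.92 CPM across mutant retinas. C1qb had 7.72, 5.61 and 8.51 CPM across WT and 9.01, 49.7 and 5.45 CPM across mutant retinas. C1qc had 7.54, 7.21 and 7.04 CPM across WT and 9.58, 30.6 and 5.56 CPM across mutant retinas. All 3 showed the same order of mutant retinas, with replicate 2 far above the WT range, replicate 1 above it by less and replicate 3 below it. The log2 fold change was 1.95 ± 0.87 for C1qa, 1.56 ± 0.78 for C1qb and 1.06 ± 0.58 for C1qc. Without Wfs1-KO replicate 2 it was 0.07 ± 0.25, 0.0011 ± 0.26 and 0.06 ± 0.24. The subunits, which assemble into C1q in equal numbers, kept a C1qa to C1qc ratio per kilobase of between 1.14 and 1.61 in 5 retinas, and had 3.05 in Wfs1-KO replicate 2. The C1qa to C1qb ratio was between 0.962 and 1.43 in the 5 retinas and 1.69 in Wfs1-KO replicate 2.

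Promoters are shown for 4 genes that behaved differently in Wfs1-KO replicate 2: C1qb and C1qc, from 1 gene cluster and high in that retina, Lyz2, which had the second highest fold there among the tested microglia genes, and P2ry12, which stayed near its WT level. Each line gives 250 bases before and 50 bases after the gene start from RefSeq (GRCm38.p6, the same assembly as mm10), 5′ to 3′ on the gene's strand, which is the minus strand for all 4. Capitals mark AGGAAGT, or ACTTCCT where it lies on the other strand, a purine-rich word with the GGAA core that PU.1 and other ETS factors bind.

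C1qb (chr4:136886151-136886450): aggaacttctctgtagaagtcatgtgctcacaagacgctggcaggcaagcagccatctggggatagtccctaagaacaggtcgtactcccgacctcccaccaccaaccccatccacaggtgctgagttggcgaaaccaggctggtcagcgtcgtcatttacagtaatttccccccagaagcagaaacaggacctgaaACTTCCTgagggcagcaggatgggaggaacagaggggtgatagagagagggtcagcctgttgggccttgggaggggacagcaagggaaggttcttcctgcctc

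C1qc (chr4:136892865-136893164): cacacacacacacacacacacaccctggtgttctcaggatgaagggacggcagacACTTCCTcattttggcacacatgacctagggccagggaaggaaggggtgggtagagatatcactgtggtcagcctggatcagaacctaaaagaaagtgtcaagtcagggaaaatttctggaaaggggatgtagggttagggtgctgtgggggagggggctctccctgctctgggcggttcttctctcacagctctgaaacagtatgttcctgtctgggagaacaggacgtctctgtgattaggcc

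Lyz2 (chr10:117282223-117282522): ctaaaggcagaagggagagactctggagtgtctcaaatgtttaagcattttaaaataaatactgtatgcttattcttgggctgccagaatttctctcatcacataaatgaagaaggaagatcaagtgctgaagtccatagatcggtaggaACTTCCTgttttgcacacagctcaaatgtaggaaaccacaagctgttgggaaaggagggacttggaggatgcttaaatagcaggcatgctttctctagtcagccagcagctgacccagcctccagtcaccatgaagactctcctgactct

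P2ry12 (chr3:59262936-59263235): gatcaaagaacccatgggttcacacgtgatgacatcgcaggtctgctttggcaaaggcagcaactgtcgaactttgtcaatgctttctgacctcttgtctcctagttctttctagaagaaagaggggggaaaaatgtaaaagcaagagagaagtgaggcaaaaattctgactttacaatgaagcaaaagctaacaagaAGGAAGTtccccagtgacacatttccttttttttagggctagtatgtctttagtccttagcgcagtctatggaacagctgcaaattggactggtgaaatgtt

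Counted from the gene start, the word begins at -53 in C1qb, at -195 in C1qc, at -100 in Lyz2 and at -52 in P2ry12. All 4 promoters shown come from genes in which the word was found, so they cannot show whether its presence goes with the level in Wfs1-KO replicate 2. RefSeq promoters were matched for 30 of the 39 genes. On either strand the word was present for 11 of these 30 genes, C1qb, C1qc, Cst7, Ctss, Fcrls, Lyz2, Mmp12, P2ry12, Ptprc, Sall1 and Spp1, and for 10.7% of the 27025 genes with a promoter. C1qa, at 9.49 times its WT mean in Wfs1-KO replicate 2, was not among the 11, and its promoter is not shown. The longer GAGGAAGT, which contains AGGAAGT, was present for 4 of the 30 (C1qc, Ctss, Mmp12 and Spp1) and for 3.69% of all genes. A match describes the letters in this window and does not show that a factor binds there.

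The median log2 fold change of the 7 receptor signalling and adhesion genes was 1.39, and 0.17 without Wfs1-KO replicate 2. Trem2, a receptor for lipids and apoptotic debris, had 1.81, 2.33 and 0.795 CPM across WT and 3.02, 17.5 and 1.86 CPM across mutant retinas. This gave Trem2 a log2 fold change of 2.15 ± 0.87, against 0.52 ± 0.39 without Wfs1-KO replicate 2. Tyrobp, the adaptor that passes on its signal, had 1.48, 1.72 and 1.25 CPM across WT and 1.92, 14.6 and 1.45 CPM across mutant retinas, with the genotypes overlapping through mutant replicate 3. With Wfs1-KO replicate 2 left out, the log2 fold change of Tyrobp went from 2.0 ± 0.87 to 0.17 ± 0.31. Fcer1g, the common Fc receptor gamma chain, had 1.67, 1.47 and 0.681 CPM across WT and 1.64, 7.25 and 1.39 CPM across mutant retinas. Receptor and adaptors thus had the same highest retina, at 10.6 times the WT mean for Trem2, 9.86 for Tyrobp and 5.69 for Fcer1g, whose log2 fold change went from 1.39 ± 0.71 to 0.19 ± 0.38 without that retina.

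Ly86, also called MD-1, the partner of the toll-like receptor relative CD180, had 2.62, 2.35 and 2.61 CPM across WT and 3.23, 11.3 and 1.2 CPM across mutant retinas. Itgam, the alpha chain of complement receptor 3, had 0.602, 0.672 and 0.227 CPM across WT and 1.01, 4.21 and 0.363 CPM across mutant retinas, at 4 to 178 counts per retina. Both were again highest in Wfs1-KO replicate 2 and had their lowest mutant value in replicate 3. Without Wfs1-KO replicate 2 the log2 fold change went from 1.05 ± 0.72 to -0.16 ± 0.37 for Ly86 and from 1.83 ± 0.88 to 0.40 ± 0.56 for Itgam. Cd14, a co-receptor for lipopolysaccharide, had 1.97, 2.14 and 1.82 CPM across WT and 2.2, 4.33 and 2.2 CPM across mutant retinas. For Cd14 no mutant retina reached down to a WT retina, although replicates 1 and 3 lay just above the WT range. Ptprc, the pan-leukocyte phosphatase CD45, had 0.482, 1.34 and 1.25 CPM across WT and 0.679, 1.87 and 0.341 CPM across mutant retinas, and its log2 fold change was -0.08 ± 0.70 and -0.93 ± 0.54 with and without Wfs1-KO replicate 2.

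For the 5 genes of lysosome, phagocytosis and cytoskeleton the median was 1.19 on the log2 scale, and 0.14 without Wfs1-KO replicate 2. Ctss, the lysosomal protease cathepsin S, was the most abundant microglia gene per kilobase of exon in WT, with 11.6 ± 1.04 (SD, n = 3) CPM per kilobase, followed by Spp1 with 8.5 ± 2.47 (SD, n = 3), C1qa with 8.16 ± 1.73 (SD, n = 3), C1qb with 6.69 ± 1.38 (SD, n = 3), C1qc with 6.04 ± 0.213 (SD, n = 3) and Cyba with 5.33 ± 2.51 (SD, n = 3). The ranges of neighbours in this order overlapped, so that their order is not resolved by 3 retinas. Ctss had 16.2, 16.8 and 14.1 CPM across WT and 23.0, 73.5 and 15.1 CPM across mutant retinas. The log2 fold change of Ctss was 1.24 ± 0.55 with all 6 retinas and 0.27 ± 0.20 without Wfs1-KO replicate 2. Laptm5, a lysosomal membrane protein of leukocytes, had 5.8, 5.34 and 3.97 CPM across WT and 7.97, 21.4 and 5.27 CPM across mutant retinas, and Mpeg1, which encodes the pore-forming perforin-2, had 5.84, 7.96 and 5.9 CPM across WT and 6.26, 19.4 and 4.47 CPM across mutant retinas. Both had their highest level in Wfs1-KO replicate 2, without which the log2 fold change went from 1.19 ± 0.51 to 0.38 ± 0.25 for Laptm5 and from 0.61 ± 0.53 to -0.29 ± 0.23 for Mpeg1. Cd68, a lysosomal glycoprotein, had 1.29, 1.3 and 1.36 CPM across WT and 1.63, 4.74 and 1.27 CPM across mutant retinas, a narrow range in 4 of the 6 retinas. Aif1, the actin-bundling protein IBA1 that serves as a microglial stain, had 0.632, 1.01 and 0.681 CPM across WT and 0.825, 6.82 and 0.341 CPM across mutant retinas, with mutant replicate 3 below and replicate 2 above the WT range, at 12 to 288 counts per retina. Aif1 had a log2 fold change of 1.76 ± 1.02 and -0.38 ± 0.49 with and without Wfs1-KO replicate 2.

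The NADPH oxidase subunits form the membrane core of the enzyme that makes superoxide. Cybb, its catalytic subunit, had 22, 66 and 2 counts across WT and 52, 231 and 24 across mutant retinas, and WT replicates alone spanned from 0.114 to 1.39 CPM. Cyba, the partner subunit, which many cell types express, had 5.71, 2.0 and 4.2 CPM across WT and 4.75, 23.3 and 3.52 CPM across mutant retinas. Wfs1-KO replicate 2 was 5.87 times the WT mean for Cyba and 8.96 times for Cybb, and the other mutant retinas lay inside the WT range for both genes. For Cyba the log2 fold change was 1.40 ± 0.76, and 0.06 ± 0.37 without Wfs1-KO replicate 2.

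The 11 disease-associated and activation genes, of which 9 were tested, spanned the widest range of values. Their median log2 fold change was 1.46, and 0.155 over the 10 tested without Wfs1-KO replicate 2. Cd74, the invariant chain of MHC class II, had the highest log2 fold change of the 37 tested genes and had 0.331, 0.441 and 0.681 CPM across WT and 1.7, 32.1 and 0.772 CPM across mutant retinas, from 12 counts in WT replicate 3 to 1356 in Wfs1-KO replicate 2. All mutant retinas were above all WT retinas. This gave Cd74 a log2 fold change of 4.64 ± 1.45, against 1.46 ± 0.48 without Wfs1-KO replicate 2. Its unadjusted p was 0.0140 with all 6 retinas and 0.0117 without Wfs1-KO replicate 2, with an adjusted p of 0.979 and 0.699 from edgeR's test.

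Lgals3, the galactose-binding lectin galectin-3, had 1.17, 1.05 and 0.624 CPM across WT and 1.78, 13.1 and 1.54 CPM across mutant retinas, with every mutant retina above every WT retina. With Wfs1-KO replicate 2 left out, the log2 fold change of Lgals3 went from 2.49 ± 0.87 to 0.75 ± 0.35. Clec7a, the beta-glucan receptor dectin-1, had 0.391, 0.294 and 0.341 CPM across WT and 0.738, 4.4 and 0.273 CPM across mutant retinas, with mutant replicate 3 below the WT retinas. The log2 fold change of Clec7a was 2.38 ± 0.98 with all 6 retinas and 0.59 ± 0.57 without Wfs1-KO replicate 2. Lyz2, the lysozyme of myeloid cells, had 1.91, 6.98 and 3.29 CPM across WT and 5.31, 94.7 and 1.98 CPM across mutant retinas, so that the mutant retinas other than replicate 2 lay inside the WT range. For Lyz2 the log2 fold change was 3.06 ± 1.36, and -0.14 ± 0.51 without Wfs1-KO replicate 2. Reads of Lyz2 could be shared with its neighbour and close paralog Lyz1, which had at most 27 counts in any retina. Mmp12, macrophage elastase, had 8, 40 and 2 counts across WT and 38, 74 and 22 across mutant retinas, with WT replicate 2 above mutant replicates 1 and 3.

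Cst7 and Itgax, under the filter on low counts, had their highest counts in the same retina. Cst7, a lysosomal cysteine protease inhibitor that marks disease-associated microglia, had 2, 2 and 0 counts across WT and 15, 90 and 0 across mutant retinas. Every WT value was at or under the floor of 3 counts. Itgax, the integrin CD11c of the same state, had 14, 4 and 2 counts across WT and 28, 78 and 6 across mutant retinas.

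Lpl, Spp1, Axl and Gpnmb are part of the disease-associated program but are also made by other retinal or pigmented cells. Lpl, lipoprotein lipase, had 17.6, 22.5 and 15.9 CPM across WT and 17.3, 66.0 and 19.3 CPM across mutant retinas, with a log2 fold change of 0.87 ± 0.52, and -0.04 ± 0.18 without Wfs1-KO replicate 2. Spp1, osteopontin, had 12.2, 18.7 and 11.1 CPM across WT and 6.0, 20.8 and 11.3 CPM across mutant retinas, with the lowest value in mutant replicate 1. Spp1 had a log2 fold change of -0.15 ± 0.45 and -0.71 ± 0.29 with and without Wfs1-KO replicate 2, with an unadjusted p of 0.0345 in the second fit and an adjusted p of 0.880 (edgeR's test). Axl, a receptor tyrosine kinase for phosphatidylserine-bound GAS6, had 15.9, 16.6 and 22.6 CPM across WT and 20.6, 22.4 and 19.6 CPM across mutant retinas, and all mutant values lay inside the WT range, with a log2 fold change of 0.19 ± 0.20, and 0.13 ± 0.18 without Wfs1-KO replicate 2. Gpnmb, a glycoprotein of lysosomes and melanosomes, had 5.06, 6.85 and 10.6 CPM across WT and 5.42, 46.7 and 9.2 CPM across mutant retinas, and a log2 fold change of 1.46 ± 0.78 became -0.02 ± 0.31 without Wfs1-KO replicate 2. Its high value in Wfs1-KO replicate 2 stood beside Dct, a melanin synthesis enzyme, with 5.68, 5.19 and 8.68 CPM across WT and 4.31, 92.8 and 3.68 CPM across mutant retinas. Of the 10 listed genes of pigment epithelium and melanocytes, which include Dct, 7 had a log2 fold change above 0 and 3 below. Among the latter, Lrat had an unadjusted p under 0.05 (adjusted p = 0.979 in edgeR's test). Without Wfs1-KO replicate 2, 9 of the 10 were below 0. In that fit 6 genes, Rpe65, Lrat, Rdh5, Ttr, Tyr and Dct, were lower at an unadjusted p under 0.05, against 2.39% of all genes. In edgeR's test 1 of the 10 then passed the adjusted threshold (adjusted p = 0.0467), against 0.125% of all genes. With DESeq2 on the same retinas 3 of the 10 passed it, all lower, against 94 of 19178 genes.

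What set Wfs1-KO replicate 2 apart reached beyond microglia. Summed over 7 red blood cell genes the level was 41.3, 29.1 and 12.3 CPM across WT and 22.8, 480.5 and 20.1 CPM across mutant retinas, 17.4 times the WT mean in Wfs1-KO replicate 2. Over 10 genes of pigment epithelium and melanocytes it was 77.3, 112 and 86.2 CPM across WT and 60.6, 404 and 34.7 CPM across mutant retinas, 4.39 times the WT mean in that retina and below the WT range in the other mutant retinas. Both lists thus had their highest sum in the same retina as the microglia genes. The 6 rod genes were the most abundant of the listed cell types and a check of the retina label. They summed to 70810, 64770 and 71500 CPM across WT and 64270, 48760 and 64340 CPM across mutant retinas. The sum was lowest in Wfs1-KO replicate 2, but every mutant retina was below the WT range. The median log2 ratio of the rod genes to their WT mean (CPM with 0.1 added) was -0.171, -0.206 and -0.134 across mutant retinas. The part of red blood cells and of pigmented cells in the microglia result was not tested.

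Markers of other myeloid cells were also read. Of 8 genes of macrophages at tissue borders, Cd163 had 0, 0 and 4 counts across WT and 4, 0 and 0 across mutant retinas and Mrc1 had 2, 4 and 16 counts across WT and 8, 52 and 0 across mutant retinas, and the sum of the list, most of it Lyve1, was between 16.2 and 19.6 CPM in 5 retinas and 38.8 CPM in Wfs1-KO replicate 2. Of the list's 3 tested genes Lyve1, a hyaluronan receptor that lymphatic vessels also carry, had an unadjusted p of 0.0462 with a log2 fold change of 0.63 ± 0.26 (adjusted p = 0.979 in edgeR's test), and 0.32 ± 0.17 without Wfs1-KO replicate 2, with all mutant retinas above all WT retinas. Ms4a7, another of the 3, went the other way without Wfs1-KO replicate 2. It was then lower in the mutant retinas at an unadjusted p under 0.05 (adjusted p = 0.533 in edgeR's test). The 6 monocyte genes summed to between 0.105 and 0.441 CPM in 5 retinas and to 1.85 CPM in Wfs1-KO replicate 2, with 13 counts of Ccr2. The 11 neutrophil genes, nearly all of whose sum was Mmp9, lay between 20.6 and 24.0 CPM in all 6 retinas, and Elane and Cxcr2 were at 0 counts throughout. The 9 T and B cell genes summed to between 0.727 and 1.53 CPM in 5 retinas and to 2.37 CPM in Wfs1-KO replicate 2. The sums of the monocyte and border macrophage lists were thus also highest in that retina, and the part of these cells in the result was not tested.

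**Figure D3:**
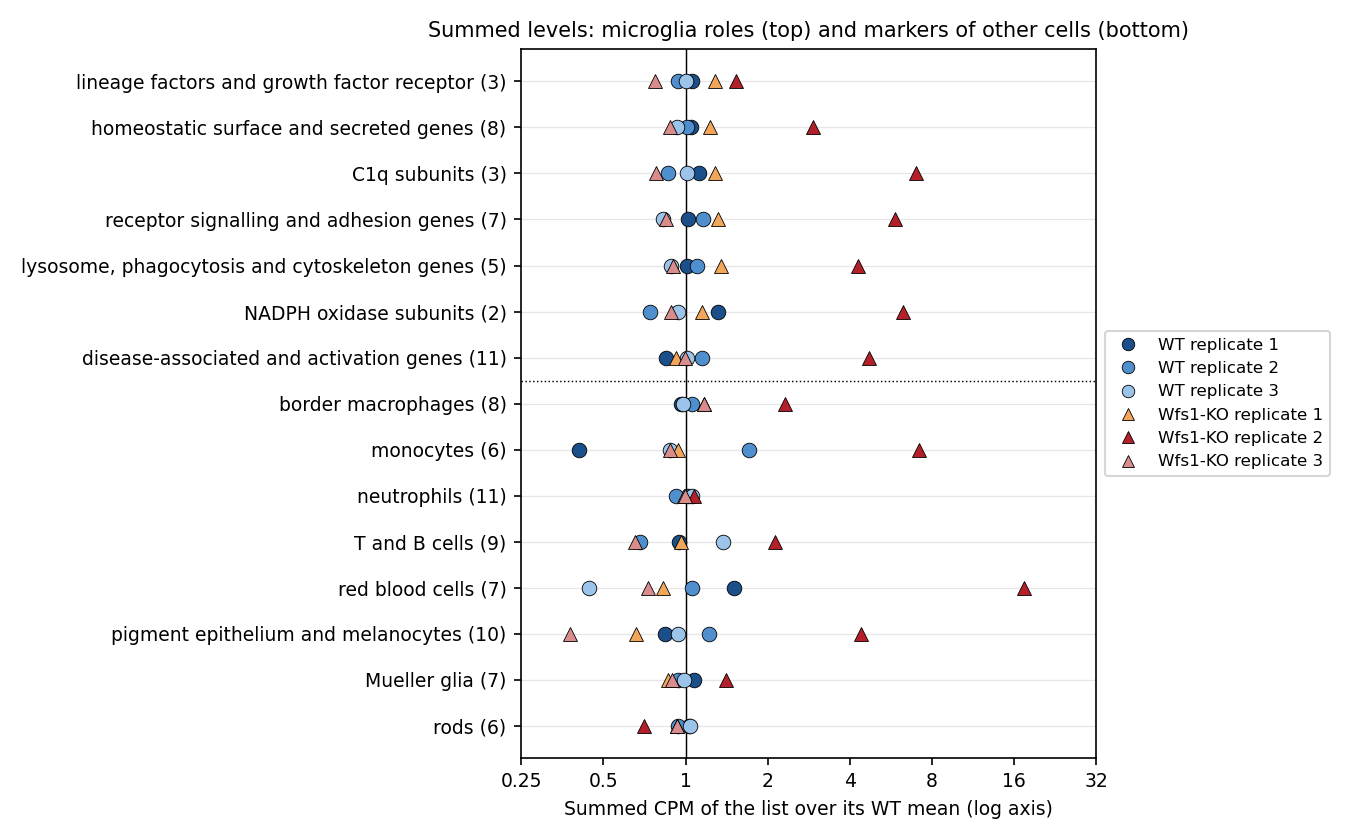
Summed CPM of each role group of the microglia genes (above the dotted line) and of marker lists of other cells (below it) in each retina, divided by the WT mean of the list, on a log axis, with the number of genes in parentheses. Wfs1-KO replicate 2 is at 6.98 for the C1q subunits, 1.53 for the lineage genes, 17.4 for red blood cells and 0.706 for rods.

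Exon length also moved with that retina. Genes are not independent replicates, and the following is a description. Over the 18547 tested genes the log2 ratio of Wfs1-KO replicate 2 to the mean of the other 5 retinas (on CPM with 0.1 added) had a Spearman correlation with exon length of -0.395, and across the 37 microglia genes it was -0.469. The median ratio of all genes was 0.58 for exon lengths of 1000 to 2000 bases and -0.37 for 4000 to 6000 bases. The microglia genes of those lengths had medians of 2.76 (13 genes) and 1.66 (11 genes), above the genes of like length in both cases. Measured from the median of its length class, the ratio was highest for Cd74 (4.61), Lyz2 (3.99) and Fcrls (3.53), and it was near 0 for P2ry12 (0.026) and Sall1 (-0.088) and -0.29 for P2ry13.

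**Figure D4:**
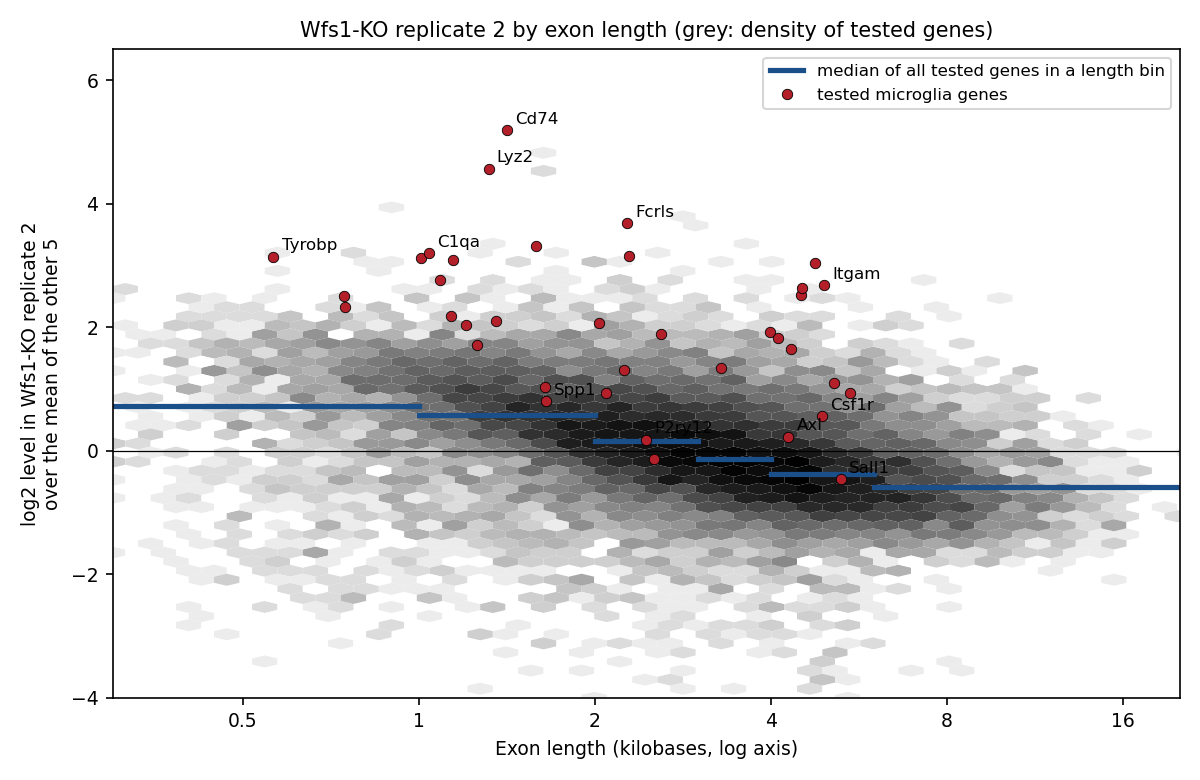
The log2 ratio of the level in Wfs1-KO replicate 2 to the mean of the other 5 retinas against exon length in kilobases (log axis), for all 18547 tested genes (grey density), their median per length bin (blue lines) and the 37 tested microglia genes (red points). The blue medians descend with length, and most red points lie above them, with no microglia gene of 6000 bases or more.

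Genes that work with the members were read from separate lists. In edgeR's test with all 6 retinas no gene of these lists had an adjusted p under 0.979, and the share of all tested genes with an unadjusted p under 0.05 was 2.81%. Of 5 ligands of CSF1R, CX3CR1 and AXL, none had an unadjusted p under 0.05. Csf1 had a log2 fold change of 0.43 ± 0.26, and 0.20 ± 0.21 without Wfs1-KO replicate 2, and Il34 had 0.35 ± 0.26 and 0.11 ± 0.20. Cx3cl1, the fractalkine ligand of CX3CR1, had 129, 109 and 110.3 CPM across WT and 122, 114 and 111 CPM across mutant retinas, and no retina stood out, in contrast to its receptor. Gas6, the AXL ligand and the most abundant gene of the list, had a log2 fold change of -0.26 ± 0.17, and -0.25 ± 0.15 without Wfs1-KO replicate 2.

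The C1 proteases and their inhibitor shared the retina of the C1q subunits. C1ra, a protease of the C1 complex, had 0.452, 0.42 and 0.568 CPM across WT and 1.22, 7.41 and 0.545 CPM across mutant retinas. This gave C1ra a log2 fold change of 2.68 ± 0.95, against 0.94 ± 0.47 without Wfs1-KO replicate 2. Serping1, the C1 inhibitor, had 6.4, 5.74 and 8.57 CPM across WT and 12.6, 66.3 and 6.92 CPM across mutant retinas, with a log2 fold change of 2.06 ± 0.79, and 0.52 ± 0.27 without Wfs1-KO replicate 2. Both had an unadjusted p under 0.05 with all 6 retinas (0.0242 and 0.0342), C1s1 had 0.0756, and none of these 3 genes had one without Wfs1-KO replicate 2.

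Of 6 genes listed for MHC class II, H2-Aa and H2-Eb1, which encode partners of CD74, had an unadjusted p under 0.05 (0.0178 and 0.0274). Without Wfs1-KO replicate 2 H2-Aa had 0.0478 and H2-Eb1 0.298, and the adjusted p of H2-Aa was 0.958 (edgeR's test). H2-Aa, an alpha chain, had 0.301, 0.168 and 0.341 CPM across WT and 1.01, 11.0 and 0.318 CPM across mutant retinas, and its log2 fold change was 3.94 ± 1.30 and 1.37 ± 0.61 with and without Wfs1-KO replicate 2. H2-Eb1, a beta chain, had 0.662, 0.525 and 0.681 CPM across WT and 1.00, 22.6 and 0.681 CPM across mutant retinas, and a log2 fold change of 3.70 ± 1.35 became 0.45 ± 0.41 without Wfs1-KO replicate 2. H2-DMa, a chain of the peptide-loading chaperone and the most abundant of the 6 in WT, had 4.8, 2.92 and 3.12 CPM across WT and 3.48, 5.92 and 2.63 CPM across mutant retinas. Ciita, the transactivator of class II genes, had 26, 33 and 6 counts across WT and 55, 6 and 24 across mutant retinas, so its CPM was lowest in the retina where the class II genes were highest.

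Of 10 receptor chains and signalling genes, 9 were tested and Cd180 and Fcgr1 had an unadjusted p under 0.05. Cd180, the partner of LY86, had 0.301, 0.462 and 0.227 CPM across WT and 0.893, 1.04 and 0.681 CPM across mutant retinas, all mutant values above all WT values at 4 to 92 counts, and its log2 fold change was 1.36 ± 0.45 and 1.20 ± 0.48 with and without Wfs1-KO replicate 2. Fcgr1, a high-affinity IgG receptor, had 0.632, 1.11 and 0.568 CPM across WT and 0.971, 3.69 and 1.82 CPM across mutant retinas, and a log2 fold change of 1.46 ± 0.57 became 0.80 ± 0.43 without Wfs1-KO replicate 2. The 4 tested NADPH oxidase partners (of 5) had none, with a median of 0.49 that became -0.32 without Wfs1-KO replicate 2, and Ncf1, the cytosolic subunit p47phox, had 2.15, 1.45 and 2.33 CPM across WT and 2.18, 4.88 and 1.16 CPM across mutant retinas.

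For 14 other homeostatic microglia genes the median log2 fold change was 0.36, and 0.08 without Wfs1-KO replicate 2. Of 18 other disease-associated genes, 16 were tested and none had an unadjusted p under 0.05 with all 6 retinas, with a median of 0.33, and -0.12 without Wfs1-KO replicate 2. In that second fit Cd52, a small surface glycoprotein of leukocytes, was lower in the mutant retinas (log2 fold change -1.84 ± 0.70, unadjusted p = 0.0232, adjusted p = 0.813 from edgeR's test). Ch25h, cholesterol 25-hydroxylase, was under the filter with 2, 1 and 0 counts across WT and 14, 478 and 6 across mutant retinas.

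Of the 10 listed cytokine and related genes 3 passed the filter, and none of them had an unadjusted p under 0.05. Cxcl10, a chemokine, Nos2, the inducible nitric oxide synthase, and Ptgs2, cyclooxygenase-2, had log2 fold changes of 0.83 ± 1.03, 0.06 ± 0.52 and 0.43 ± 0.41, and 0.01 ± 0.83, 0.24 ± 0.55 and 0.38 ± 0.44 without Wfs1-KO replicate 2. Among those under the filter, Il1b, the interleukin-1 beta gene, had 0, 116 and 0 counts across WT and 2, 14 and 0 across mutant retinas. Ccl2, Ccl3 and Ccl5, chemokines for myeloid and T cells, likewise had their highest counts in WT replicate 2, at 56, 48 and 82 counts, against at most 14 in any other retina.

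Some reads could not be assigned to a member with certainty. Exons of P2ry12 overlap Med12l on the other strand, and the library kit does not keep the strand, while Med12l had 11.4, 15.9 and 19.2 CPM across WT and 19.9, 2.13 and 20.8 CPM across mutant retinas. In the annotation exons of Csf1r, Cx3cr1, Mmp12, Itgam, Spp1 and Cd74 also overlap another gene.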

How the data were processed

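Whole-retina RNA-seq of 3 WT and 3 Wfs1-KO mice was analysed from the read counts that the authors deposited. Per the labels, reads were trimmed with Trimmomatic 0.39, aligned to mm10 with STAR 2.5.3a and counted per gene over exons with featureCounts 1.6.4; the methods name other versions of Trimmomatic and STAR. The file's column names RetC and RetW were matched to WT and Wfs1-KO through the sample labels, and 2 library columns that match no label were not used. Exon lengths, the other deposited values used, came from the same table. Between 71.1% and 79.3% of counts from 1 to 10 were even, as when both mates of a read pair are counted, so low counts hold fewer fragments than their number.

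All genes passing edgeR's filterByExpr (18547 of 55376) were fitted with edgeR 4.0.16 in R 4.3.3 (TMM, quasi-likelihood test, two-sided, genotype only), with Benjamini-Hochberg adjustment over all of them and a threshold of 0.05. Scripts were tested on simulated data. A floor of 3 counts corresponded to 0.0291 to 0.170 CPM, and covers counting error only. No libraries agreed within sampling noise. The 13 alternatives were DESeq2 1.42.0 (with all retinas and without Wfs1-KO replicate 2), RLE and upper-quartile scaling, no filter, at least 10 counts in every retina, a replicate block and the omission of each retina, and counts of groups that do not overlap were also taken without Wfs1-KO replicate 2, a choice made after seeing the data.

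The members, role groups and other gene lists were chosen with earlier results of these data known. Values per retina were to be given for the 3 most abundant members of each role group per kilobase, for members with an unadjusted p under 0.05 in the fit of all retinas or with any 1 retina omitted, and for the 5 largest rises and falls. From the other lists, genes with an unadjusted p under 0.05 and the most abundant gene were to be named, and some of these are not reported here. The remaining members and Csf1, Il34, Cx3cl1, C1s1, Ciita, Ch25h, Il1b, Ccl2, Ccl3, Ccl5, Cxcl10, Nos2, Ptgs2 and Med12l were added after their values were seen.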

Additional observations from a re-analysis of the deposited data

How the results depend on the processing

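No microglia gene passed an adjusted p of 0.05 in any of the 13 alternatives run. The count with an unadjusted p under 0.05, 6 in the reported fit, was 14 with DESeq2, 2 with DESeq2 without Wfs1-KO replicate 2, 20 with no filter on low counts, and between 0 and 23 when each retina was left out. The count of all tested genes past the adjusted threshold, 2 in the reported fit, was 52 with DESeq2, 94 with DESeq2 without Wfs1-KO replicate 2, 9 with no filter, and between 0 and 24 when each retina was left out (24 without Wfs1-KO replicate 2). The median log2 fold change of the microglia genes was between 0.101 and 1.57 when each retina was left out, and 0.10 with DESeq2 without Wfs1-KO replicate 2. By role, the corresponding range and DESeq2 value were 0.0614 to 2.01 and 0.0599 for C1q subunits, 0.174 to 1.76 and 0.172 for receptor signalling, 0.143 to 1.53 and 0.144 for lysosome and phagocytosis, -0.129 to 2.10 and -0.109 for NADPH oxidase, and 0.155 to 2.33 and 0.177 for disease-associated genes. The median of the lineage genes became -0.0431 with at least 10 counts required in every retina, where Spi1 was not tested.

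With the replicate number as a block (replicate block), the median was 0.832, 5 microglia genes had an unadjusted p under 0.05 and 1 gene of the whole table passed the adjusted threshold. Deviations of same-numbered retinas from their group means had correlations of -0.234, -0.111 and 0.0784, and nothing in the labels pairs them, so the retinas share only a number.

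The sign of 14 single genes turned under some alternative, and the cause was not tested beyond the retina left out. When each retina was left out, the log2 fold change ranged from -0.0596 to 0.858 for Tmem119, from -0.377 to 2.28 for Aif1, from -0.0751 to 3.08 for Fcrls, from -0.00498 to 0.933 for Siglech, from -0.337 to 0.464 for Olfml3, from -0.144 to 3.73 for Lyz2, from -0.317 to 3.14 for Cybb, from -0.0402 to 1.19 for Lpl, from -0.294 to 0.956 for Mpeg1, from -0.165 to 1.51 for Ly86 and from -0.0233 to 1.91 for Gpnmb, with the negative value without Wfs1-KO replicate 2 in each case. It ranged from -0.715 to 0.192 for Spp1 (positive without WT replicate 2 or Wfs1-KO replicate 1) and from -0.929 to 0.315 for Ptprc (positive without any 1 of WT replicates 2 and 3 and Wfs1-KO replicates 1 and 3). With DESeq2 without Wfs1-KO replicate 2 the values were -0.0566 for Tmem119, -0.391 for Aif1, -0.00212 for C1qb, -0.158 for Fcrls, -0.00872 for Siglech, -0.339 for Olfml3, -0.161 for Lyz2, -0.274 for Cybb, -0.0411 for Lpl, -0.295 for Mpeg1, -0.173 for Ly86 and -0.0286 for Gpnmb. Genes with few counts, such as Cst7 and Itgax, are limited by depth.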
